A study of Homo sapiens with 15 samples.

Results

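A set of 10 genes of sphingolipid metabolism was followed in A549 cells, a human lung adenocarcinoma line with epithelial features. The 10 genes, of 26475 in the deposited table, are SPTLC1, SPTLC2, SPTLC3, SGMS2, SMPD1, SMPD2, SMPD3, ASAH1, SPHK1 and SGPL1. They were grouped by their place in the pathway, and the list was selected on knowledge of earlier results of these same counts, in which SMPD3 stood out for its ratio between IL4-treated and untreated cells. SMPD3 in comparisons with untreated cells is therefore given as a description with no test. The counts of changed genes below describe these 10 genes and support nothing beyond them.

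Sphingolipid synthesis begins when serine palmitoyltransferase joins serine to palmitoyl-CoA, and its products are turned into ceramide, the hub of the pathway. Sphingomyelin synthases place a phosphocholine head group on ceramide, and sphingomyelinases take it off again. Ceramidases release sphingosine, sphingosine kinases phosphorylate it to the signalling lipid sphingosine-1-phosphate, and sphingosine-1-phosphate lyase cleaves that lipid irreversibly. In lung epithelium these lipids are known as membrane and surfactant-associated components and as mediators of inflammatory signalling.

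RNA was sequenced from 15 libraries in 5 groups of 3, all from A549 cells harvested at 48 h. In 4 groups the cells received 10 ng/ml IL4, a type 2 cytokine that signals through the transcription factor STAT6: IL4 with a pool of siRNAs against ALOX15 at 1 uM (ALOX15 siRNA cells), IL4 with a control siRNA pool (control siRNA cells), IL4 with Compound A (Compound A cells) and IL4 alone (IL4 cells). The fifth group was untreated. The labels give neither the identity nor the dose of Compound A, give no dose for the control siRNA, and do not say whether IL4 or untreated cells received a vehicle or a mock transfection. They give one line and no separate passages or cultures, so p-values measure the spread between these libraries, which may be technical. ALOX15, the lipoxygenase that the siRNA targets, fell in ALOX15 siRNA cells relative to control siRNA cells (0.136, 0.314 and 0.319 CPM, against 3.91, 3.56 and 3.25 CPM; log2 change -3.85 ± 0.43 SE, edgeR adjusted p = 8.47e-05) and in Compound A cells relative to IL4 cells (log2 change -1.23 ± 0.25 SE, edgeR adjusted p = 0.00328). Relative to control siRNA cells, ALOX15 in Compound A cells did not pass the test (log2 change -0.68, edgeR adjusted p = 0.163).

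The libraries held 6407936 to 11031246 counts. Levels are given as CPM, each count divided by the scaled library size and set to a common library of 1e+06 counts. IL4 replicate 1 stood apart from the other IL4 libraries, with a chi-square per degree of freedom of 13.7 and 10.2 against them and 2.46 between those 2, and many of the values that use it are also given without it. Untreated replicate 1 stood apart to a lesser degree, with values of 5.43 and 5.4 against the other untreated libraries and 1.61 between those 2. Of 6 alveolar type II markers, the label's cell type, SFTPB was at 0 in every library and SFTPC, SFTPA1 and SFTPA2 at or near 0. The other markers on that list were present, ABCA3 at 35.9 to 71.8 CPM and LAMP3 at 1.34 to 6.58 CPM over all libraries. The summed level of 10 markers of other cell types was 47.5 to 62.2 CPM in IL4 cells and 31.6 to 35.4 CPM in untreated cells, with CD68 and COL1A1 past the test and PTPRC, MS4A1 and CD3E at 0 throughout. It was 31.2 to 38.2 CPM in Compound A cells. The 6 epithelial markers, led by the keratins KRT8 and KRT18, summed to 8549 to 10530 CPM in IL4 cells and 5173 to 5854 CPM in untreated cells. On the same list EPCAM fell (log2 change -0.53 ± 0.15 SE, edgeR adjusted p = 0.0128) and KRT19 rose (log2 change 0.55 ± 0.14 SE, edgeR adjusted p = 0.00871). CDH1 did not pass the test (edgeR adjusted p = 0.109), and NKX2-1 had 0 or 1 count in every library. The part of these shifts in the results below was not tested, and fewer cells of a kind and less RNA per cell cannot be told apart in bulk RNA.

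The comparisons are: ALOX15 siRNA against control siRNA, Compound A against IL4, control siRNA against IL4, Compound A against control siRNA, and each IL4 arm against untreated. A gene is said to have risen or fallen where the edgeR quasi-likelihood test, adjusted over the 12795 genes tested, gave p below 0.05. The share of all genes whose libraries do not overlap was worked out for ALOX15 siRNA against control siRNA only. In the other comparisons non-overlap is a description and is not read as a difference. Of the 10 genes, 9 passed the filter on low counts. The exception was SPTLC3, with 34 counts over all 15 libraries.

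Per kilobase of the longest coding transcript, the levels in untreated cells spanned a wide range. SPTLC1 came first at 58.8 CPM per kb, then ASAH1 at 49.0, SGPL1 at 21.4 and SPTLC2 at 11.5 CPM per kb. SMPD2, SGMS2 and SMPD1 followed at 5.63, 4.76 and 4.51 CPM per kb, and SPHK1 stood at 0.689 CPM per kb. SPTLC3 and SMPD3 closed the order at 0.0604 and 0.00913 CPM per kb. Transcript choice is not known for these cells, so neighbours in this order are not separated by it.

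**Figure D1:**
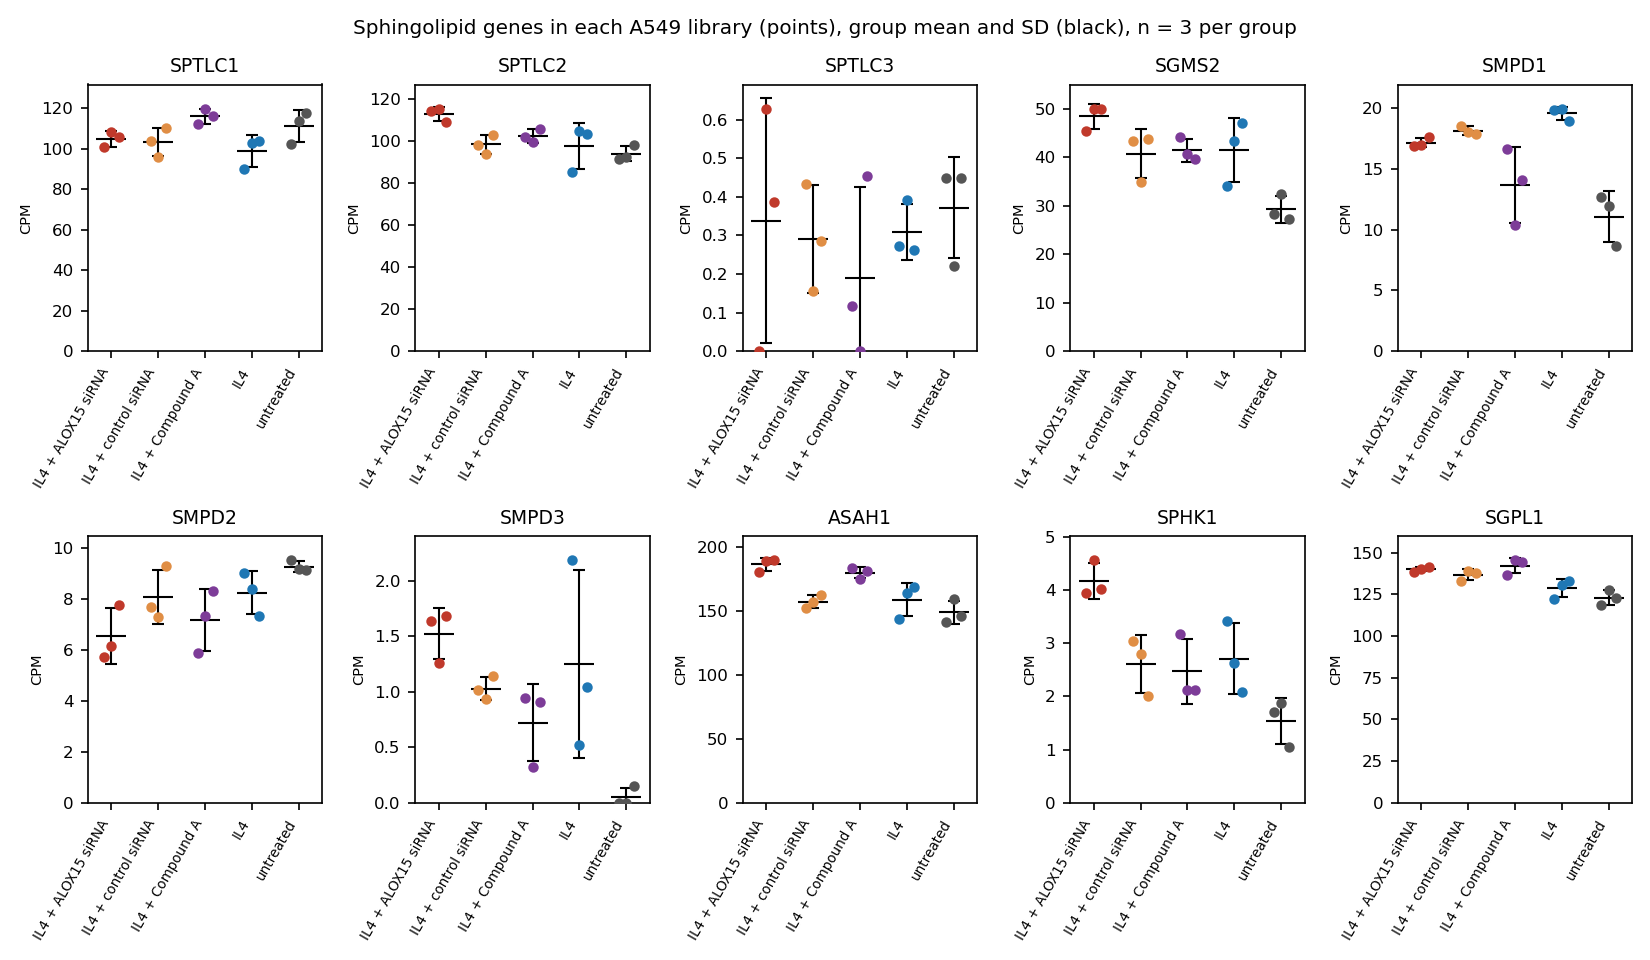
Level of each of the 10 genes in CPM (y axis, from 0, own scale per gene) in every library (points), with the group mean and SD in black (n = 3 per group); groups run from IL4 with ALOX15 siRNA on the left to untreated on the right. SMPD1, SMPD3, SGMS2 and SPHK1 have all 3 IL4 libraries above all 3 untreated libraries, and SMPD2 has them below. The share of all genes without such overlap was not worked out for this comparison. SPHK1 has its 3 highest libraries in the ALOX15 siRNA group.

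SPTLC1 encodes the subunit that every serine palmitoyltransferase complex contains. It had 101, 108 and 106 CPM in ALOX15 siRNA cells and 104, 96.1 and 110.2 CPM in control siRNA cells. It had 112, 119.8 and 116 CPM in Compound A cells, 89.9, 103 and 104 CPM in IL4 cells, and 103, 114 and 118 CPM in untreated cells. The Compound A libraries all lay above the IL4 libraries, and IL4 replicate 1 was the lowest library of the 15.

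SPTLC2, the catalytic partner of SPTLC1, stayed within a narrow band. Its means were 113 ± 3.36 CPM in ALOX15 siRNA cells, 98.3 ± 4.42 CPM in control siRNA cells, 102 ± 3.28 CPM in Compound A cells, 97.7 ± 10.9 CPM in IL4 cells and 93.9 ± 3.72 CPM in untreated cells (SD, n = 3 each). The 3 ALOX15 siRNA libraries, at 114, 115 and 109 CPM, were above every other library of the series. SPTLC3, an alternative catalytic subunit that gives shorter sphingoid bases, had 0 to 5 counts in any library. Its group totals were 7 counts in ALOX15 siRNA cells, 6 in control siRNA cells, 4 in Compound A cells, 7 in IL4 cells and 10 in untreated cells. No difference in SPTLC3 was detectable at this depth: the IL4 total over the untreated total gave a ratio of 0.833, with an exact 95% counting interval of 0.269 to 2.43.

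SGMS2, the sphingomyelin synthase of the plasma membrane, was higher in every arm with IL4. It had 45.5, 49.96 and 49.9 CPM in ALOX15 siRNA cells, 43.4, 34.9 and 43.8 CPM in control siRNA cells, and 44.1, 40.7 and 39.6 CPM in Compound A cells. It had 34.1, 43.3 and 47.0 CPM in IL4 cells and 28.2, 32.4 and 27.2 CPM in untreated cells. None of the 12 libraries with IL4 fell below the highest untreated library.

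SMPD1 encodes acid sphingomyelinase, the lysosomal enzyme that is deficient in types A and B of Niemann-Pick disease. It had 16.9, 17.0 and 17.6 CPM in ALOX15 siRNA cells, 18.5, 18.0 and 17.8 CPM in control siRNA cells, and 16.6, 10.4 and 14.1 CPM in Compound A cells. It had 19.8, 19.9 and 18.9 CPM in IL4 cells and 12.6, 11.9 and 8.67 CPM in untreated cells. The 3 Compound A libraries lay below every other library with IL4 and overlapped the untreated range.

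SMPD2, a neutral sphingomyelinase, averaged 6.53 ± 1.08 CPM in ALOX15 siRNA cells, 8.08 ± 1.06 CPM in control siRNA cells, 7.17 ± 1.22 CPM in Compound A cells, 8.24 ± 0.857 CPM in IL4 cells and 9.25 ± 0.214 CPM in untreated cells (SD, n = 3 each). Its untreated libraries were 9.501, 9.15 and 9.12 CPM, and its ALOX15 siRNA libraries 5.72, 6.13 and 7.76 CPM.

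SMPD3, the neutral sphingomyelinase of the Golgi and plasma membrane, was close to the detection limit in untreated cells. It had 12, 8 and 13 counts in ALOX15 siRNA cells, 7, 6 and 8 in control siRNA cells, 8, 3 and 6 in Compound A cells, 16, 4 and 8 in IL4 cells, and 0, 0 and 1 in untreated cells. A count of 0 allowed up to 0.269 and 0.331 CPM in those 2 untreated libraries. Every library with IL4 held more SMPD3 counts than any untreated library, and IL4 replicate 1 alone held 16 of the 28 counts of its group. At 1.25 ± 0.848 CPM in IL4 cells (SD, n = 3), SMPD3 stayed below SMPD1 and SMPD2 on the per-kilobase scale, at 0.229 CPM per kb against 7.97 and 5.01 CPM per kb.

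ASAH1, acid ceramidase, is the lysosomal enzyme that releases sphingosine from ceramide. It had 181, 189 and 189.6 CPM in ALOX15 siRNA cells, 152, 157 and 163 CPM in control siRNA cells, and 183, 175 and 181 CPM in Compound A cells. It had 144, 164 and 169 CPM in IL4 cells and 142, 159 and 146 CPM in untreated cells. The 6 libraries with ALOX15 siRNA or Compound A were the 6 highest of the series.

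SPHK1, the sphingosine kinase known to be induced by growth factors and cytokines, was expressed at low levels. It had 3.95, 4.56 and 4.01 CPM in ALOX15 siRNA cells, 3.04, 2.79 and 2.00 CPM in control siRNA cells, and 3.18, 2.12 and 2.12 CPM in Compound A cells. It had 3.41, 2.62 and 2.09 CPM in IL4 cells and 1.70, 1.87 and 1.05 CPM in untreated cells. No other library reached the lowest ALOX15 siRNA library, and no library with IL4 fell to the untreated range.

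SGPL1, the lyase that degrades sphingosine-1-phosphate, varied least, with group means 0.209 apart on the log2 CPM scale. Its means were 140.1 ± 1.28 CPM in ALOX15 siRNA cells, 137 ± 3.26 CPM in control siRNA cells, 142 ± 4.61 CPM in Compound A cells, 129 ± 5.53 CPM in IL4 cells and 123 ± 4.57 CPM in untreated cells (SD, n = 3 each).

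Of the 8 tested genes other than SMPD3, SGMS2 and SMPD1 rose between IL4 and untreated cells and none fell. Over all 12795 genes, 11.2% rose and 11.6% fell in the same comparison, and nothing is read from the count for these genes, since the list was chosen with this comparison known. SMPD1 rose to 19.6 ± 0.536 CPM in IL4 cells, against 11.1 ± 2.11 CPM in untreated cells (SD, n = 3 each), a log2 change of 0.79 ± 0.14 (SE; edgeR adjusted p = 0.000387). SGMS2 rose to 41.5 ± 6.64 CPM in IL4 cells, against 29.3 ± 2.75 CPM in untreated cells, a log2 change of 0.50 ± 0.11 (SE; edgeR adjusted p = 0.00267). Without IL4 replicate 1 the log2 change was 0.78 for SMPD1 and 0.62 for SGMS2, and both passed the test. The SMPD3 count summed to 28 in IL4 cells and 1 in untreated cells, a ratio of 33.3 with an exact 95% counting interval of 5.51 to 1360, and the IL4 libraries other than replicate 1 held 4 and 8 of those counts.

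The other 6 of these 8 genes did not pass the test between IL4 and untreated cells. SPHK1 came nearest, at 2.71 ± 0.665 CPM in IL4 cells and 1.54 ± 0.437 CPM in untreated cells (log2 change 0.76 ± 0.29 SE, edgeR adjusted p = 0.062). Its libraries did not overlap, and it passed the test without IL4 replicate 3 (edgeR adjusted p = 0.0357) but stood at 0.56 without IL4 replicate 1 (edgeR adjusted p = 0.257). SPTLC1 had a log2 change of -0.17 ± 0.07 (SE; edgeR adjusted p = 0.106), with overlapping libraries, and -0.10 without IL4 replicate 1. SMPD2 had a log2 change of -0.17 ± 0.16 (SE; edgeR adjusted p = 0.47), and all 3 of its IL4 libraries lay below all 3 untreated libraries; without IL4 replicate 1 it was -0.24. The log2 changes of SPTLC2, ASAH1 and SGPL1 were 0.06, 0.09 and 0.07, with 95% intervals of -0.09 to 0.21, -0.04 to 0.23 and -0.05 to 0.19, and without IL4 replicate 1 they were 0.15, 0.16 and 0.10. ASAH1 passed the test when counts were corrected for GC content (log2 change 0.20, edgeR adjusted p = 0.00148). The median log2 change was 0.08 over the 8 genes other than SMPD3 and -0.02 over all genes tested.

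Because SMPD1 and SGMS2 rose with IL4 and SPTLC1 rose with Compound A, promoter windows of these genes are shown with the spaced palindromes TTCNNNNGAA, the type bound by STAT6, and TTCNNNGAA, the type bound by STAT factors more generally. Each window runs from 250 bases before to 50 bases after a RefSeq transcript start (GRCh38.p14), is printed 5′ to 3′ on the gene's strand, and has any match in capitals. A match to these palindromes reads the same on either strand, and the motifs do not overlap in these windows. The SMPD1 window lies at chr11:6390224-6390523 on the plus strand, the SGMS2 window, the second of 3 and printed because it held a match, at chr4:107824682-107824981 on the plus strand, and the SPTLC1 window at chr9:92115364-92115663 on the minus strand.
SMPD1: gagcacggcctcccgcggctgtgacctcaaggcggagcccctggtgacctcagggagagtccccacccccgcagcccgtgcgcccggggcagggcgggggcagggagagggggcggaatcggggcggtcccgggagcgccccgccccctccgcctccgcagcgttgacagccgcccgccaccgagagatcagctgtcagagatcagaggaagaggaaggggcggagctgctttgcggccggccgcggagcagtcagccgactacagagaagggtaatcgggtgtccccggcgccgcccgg
SGMS2: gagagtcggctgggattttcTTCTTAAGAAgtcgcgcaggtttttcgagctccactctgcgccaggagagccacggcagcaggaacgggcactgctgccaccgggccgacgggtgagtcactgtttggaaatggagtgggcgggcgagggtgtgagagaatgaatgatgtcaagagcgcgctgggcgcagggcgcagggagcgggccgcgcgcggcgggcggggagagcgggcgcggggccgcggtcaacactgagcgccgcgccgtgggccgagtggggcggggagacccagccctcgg
SPTLC1: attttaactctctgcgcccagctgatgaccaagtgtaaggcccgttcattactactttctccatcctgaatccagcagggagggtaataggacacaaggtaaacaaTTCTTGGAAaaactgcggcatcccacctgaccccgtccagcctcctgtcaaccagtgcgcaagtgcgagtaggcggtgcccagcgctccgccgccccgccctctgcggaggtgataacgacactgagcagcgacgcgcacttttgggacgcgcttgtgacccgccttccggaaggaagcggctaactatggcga
The SMPD1 window held neither motif, 1 of the 3 SGMS2 windows held 1 match to TTCNNNNGAA and the other 2 neither motif, and the SPTLC1 window held 1 match to TTCNNNGAA. RefSeq windows were examined for 7 of the 10 genes, 11 windows in all, and 3 of the 11 held a match, the last being the first of 3 SPHK1 windows. No window was examined for SMPD3, SPTLC3 or ASAH1, so nothing is said about motifs in their promoters. That is a limit of the windows used here and does not show that RefSeq lacks these genes. Of all 35116 RefSeq promoter windows, 6.44% held TTCNNNNGAA, 7.66% held TTCNNNGAA and 13.5% held either. These matches are descriptions of the letters in each window.

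The other 3 arms with IL4 were compared with the same 3 untreated libraries, so their values are set side by side and share that reference. Of the 8 tested genes other than SMPD3, 6 rose and 1 fell in ALOX15 siRNA cells, beside 12.5% rising and 12.6% falling over all genes. In control siRNA cells 2 rose and none fell, beside 9.93% and 9.36% over all genes. In Compound A cells 3 rose and none fell, beside 12.7% and 13.5% over all genes. The summed SMPD3 counts gave ratios to untreated of 41.4 in ALOX15 siRNA cells, 27.8 in control siRNA cells and 18.7 in Compound A cells, with exact 95% counting intervals of 6.94 to 1690, 4.46 to 1150 and 2.92 to 780.

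Of these 8 genes SGMS2 alone rose in all 4 arms, with log2 changes over untreated of 0.72 ± 0.11 in ALOX15 siRNA cells, 0.47 ± 0.11 in control siRNA cells, 0.50 ± 0.11 in Compound A cells and 0.50 ± 0.11 in IL4 cells (SE). SMPD1 rose by 0.61 ± 0.15 in ALOX15 siRNA cells (edgeR adjusted p = 0.00436) and by 0.68 ± 0.15 in control siRNA cells (edgeR adjusted p = 0.00203). In Compound A cells it did not pass the test over untreated, at 0.27 ± 0.15 (SE; edgeR adjusted p = 0.20). That last value passed without Compound A replicate 2 (log2 change 0.47, edgeR adjusted p = 0.0247), the library with the lowest SMPD1 level among those with IL4.

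ASAH1 rose over untreated in ALOX15 siRNA cells (log2 change 0.32 ± 0.06 SE, edgeR adjusted p = 0.000786) and in Compound A cells (log2 change 0.27 ± 0.06 SE, edgeR adjusted p = 0.00352). In control siRNA cells its log2 change was 0.08 ± 0.07 (SE; edgeR adjusted p = 0.457). SGPL1 rose in the same pair of arms, by 0.19 ± 0.06 in ALOX15 siRNA cells and 0.21 ± 0.06 in Compound A cells on the log2 scale, and its value of 0.15 ± 0.06 in control siRNA cells had an edgeR adjusted p of 0.0666. SPHK1 rose in ALOX15 siRNA cells, by 1.38 ± 0.27 on the log2 scale (SE; edgeR adjusted p = 0.000604), to 4.17 ± 0.335 CPM in ALOX15 siRNA cells, against 1.54 ± 0.437 CPM in untreated cells (SD, n = 3 each). In the control siRNA and Compound A cells SPHK1 stood at log2 changes of 0.71 ± 0.30 and 0.64 ± 0.29, with edgeR adjusted p of 0.102 and 0.11. SPTLC2 rose over untreated in ALOX15 siRNA cells (log2 change 0.26 ± 0.07 SE, edgeR adjusted p = 0.0101).

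SMPD2 fell in ALOX15 siRNA cells relative to untreated cells, with a log2 change of -0.50 ± 0.16 (SE; edgeR adjusted p = 0.0295). This call was lost when any untreated library, ALOX15 siRNA replicate 1 or ALOX15 siRNA replicate 2 was left out (edgeR adjusted p 0.0622 to 0.133), and with DESeq2 (adjusted p = 0.077). The SGPL1 call in ALOX15 siRNA cells was lost without untreated replicate 1 (edgeR adjusted p = 0.0545). A call in the ALOX15 siRNA arm and none in the control siRNA arm is no test of a difference between these arms; the direct comparison is given below.

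**Figure D2:**
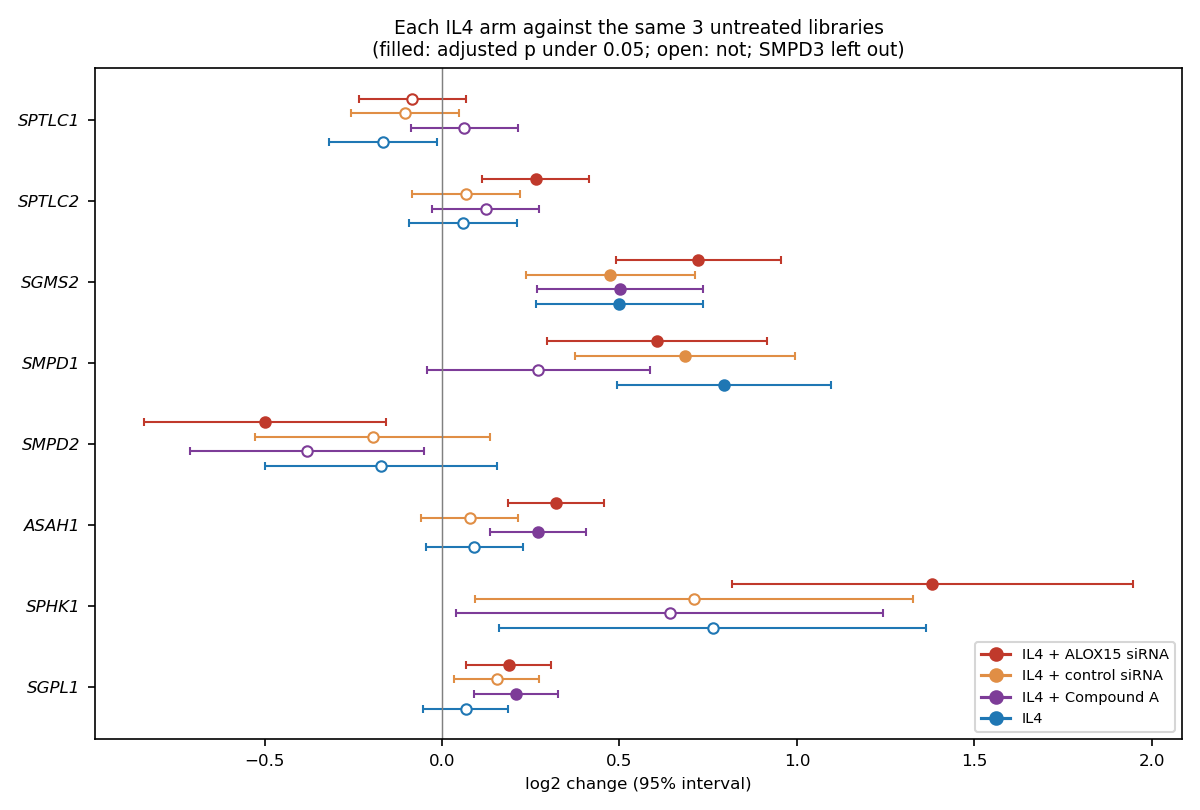
Log2 change over the same 3 untreated libraries (x axis, points with 95% intervals) of 8 tested genes in the 4 arms with IL4, listed from IL4 with ALOX15 siRNA at the top to IL4 alone; filled points have an edgeR adjusted p under 0.05. SGMS2 is filled in every arm, SMPD1 in every arm but Compound A (0.27), and SPHK1 in the ALOX15 siRNA arm (1.38).

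Compound A cells differed from IL4 cells in 2 of the 9 tested genes: SPTLC1 rose and SMPD1 fell. Over all genes 6.35% rose and 8.07% fell in this comparison, so 1 gene in each direction among 9 is near that share. SMPD1 averaged 13.7 ± 3.11 CPM in Compound A cells and 19.6 ± 0.536 CPM in IL4 cells (SD, n = 3 each), a log2 change of -0.52 ± 0.14 (SE; edgeR adjusted p = 0.0196). It was -0.51 without IL4 replicate 1 (edgeR adjusted p = 0.0221), but the call was lost without Compound A replicate 2 (log2 change -0.35, edgeR adjusted p = 0.137) and without Compound A replicate 3 (edgeR adjusted p = 0.0502). SPTLC1 averaged 116 ± 3.70 CPM in Compound A cells and 99.0 ± 7.86 CPM in IL4 cells, a log2 change of 0.23 ± 0.07 (SE; edgeR adjusted p = 0.0397). The SPTLC1 call was lost without IL4 replicate 1 (log2 change 0.17, edgeR adjusted p = 0.125), without IL4 replicate 2, and without each Compound A library in turn (edgeR adjusted p 0.0518 to 0.156).

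ASAH1 and SGPL1 were higher in all 3 Compound A libraries than in all 3 IL4 libraries without passing the test. Their log2 changes were 0.18 ± 0.06 (SE; edgeR adjusted p = 0.0679) and 0.14 ± 0.06 (SE; edgeR adjusted p = 0.0956), and without IL4 replicate 1 they were 0.11 and 0.11. SGMS2 averaged 41.5 ± 2.37 CPM in Compound A cells and 41.5 ± 6.64 CPM in IL4 cells, with a 95% interval of the log2 difference of -0.23 to 0.23, and a log2 difference of -0.12 without IL4 replicate 1. SMPD3 summed to 17 counts in Compound A cells and 28 in IL4 cells, a ratio of 0.56 with an exact 95% counting interval of 0.287 to 1.06, and 16 of those 28 counts came from IL4 replicate 1. SPHK1, SMPD2 and SPTLC2 had 95% intervals of -0.69 to 0.44, -0.55 to 0.13 and -0.09 to 0.22, and log2 changes of 0.08, -0.14 and -0.03 without IL4 replicate 1.

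None of the 9 tested genes passed the test between ALOX15 siRNA and control siRNA cells, where 0.696% of all genes did. Unadjusted p was below 0.05 for 4 of the 9, all with higher values in ALOX15 siRNA cells, beside 1140 of 12795 genes over all, and DESeq2 gave 0 adjusted calls. ASAH1 averaged 186 ± 4.99 CPM in ALOX15 siRNA cells and 157 ± 5.24 CPM in control siRNA cells (SD, n = 3 each), a log2 change of 0.25 ± 0.07 (SE; edgeR adjusted p = 0.105). SPHK1 averaged 4.17 ± 0.335 CPM in ALOX15 siRNA cells and 2.61 ± 0.544 CPM in control siRNA cells, a log2 change of 0.67 ± 0.26 (SE; edgeR adjusted p = 0.386), and its summed counts of 89 and 53 gave a ratio of 1.59 with an exact 95% counting interval of 1.12 to 2.29. SGMS2 and SPTLC2 had log2 changes of 0.25 ± 0.11 (SE; edgeR adjusted p = 0.509) and 0.20 ± 0.07 (SE; edgeR adjusted p = 0.358).

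The ALOX15 siRNA libraries lay wholly above the control siRNA libraries for 5 genes, SMPD3, SPTLC2, SGMS2, ASAH1 and SPHK1, and wholly below for SMPD1. Over all genes 9.47% lay wholly above and 9.18% wholly below. SMPD3 passed the filter on low counts only through IL4 replicate 1 and ALOX15 siRNA replicates 1 and 3, at 2.18, 1.63 and 1.68 CPM. The filter thus favoured SMPD3 being high in ALOX15 siRNA cells, and nothing is read from its place among the 5. SMPD1 itself differed little, at 17.1 ± 0.380 CPM in ALOX15 siRNA cells and 18.1 ± 0.365 CPM in control siRNA cells (SD, n = 3 each), with a 95% interval of the log2 difference of -0.38 to 0.22. The median log2 change was 0.20 for the 9 genes and 0.115 for the 8 other than SMPD3, beside 0.00 over all genes tested. ASAH1 did pass the test when the fit held only these 2 groups (edgeR adjusted p = 0.00479) and when counts were corrected for GC content (edgeR adjusted p = 0.00729).

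Control siRNA cells did not differ from IL4 cells in any of the 9 tested genes, and 0% of all 12795 genes passed the edgeR test. The count of members was also 0 without IL4 replicate 1. No member and 628 of all genes had an unadjusted p below 0.05, and DESeq2 called 0 members and 2 genes over all. The widest interval was that of SMPD3, a log2 difference of -1.28 to 0.75, and the narrowest that of SGPL1, -0.03 to 0.21. Compound A cells, set against control siRNA cells instead of IL4 cells, differed in none of the 9 by edgeR, where 5.28% of all genes passed. Of the 9, 3 had an unadjusted p below 0.05, beside 2563 of 12795 genes over all, and DESeq2 called 0. SMPD1 had a log2 change of -0.41 ± 0.15 (SE; edgeR adjusted p = 0.114) in that comparison, SPTLC1 0.17 ± 0.07 (SE; edgeR adjusted p = 0.206) and ASAH1 0.19 ± 0.07 (SE; edgeR adjusted p = 0.0948).

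The change with Compound A over IL4 was then tested against the change with ALOX15 siRNA over control siRNA. None of the 9 genes passed by edgeR or by DESeq2, where edgeR passed 5.14% of all genes, and 2 of the 9 had an unadjusted p below 0.05, beside 2537 of 12795 genes over all. The difference was -0.44 ± 0.20 for SMPD1 (SE; edgeR adjusted p = 0.229) and -0.79 ± 0.38 for SPHK1 (SE; edgeR adjusted p = 0.248) on the log2 scale. For ASAH1, which was higher with both interventions, it was -0.07, with a 95% interval of -0.26 to 0.13.

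**Figure D3:**
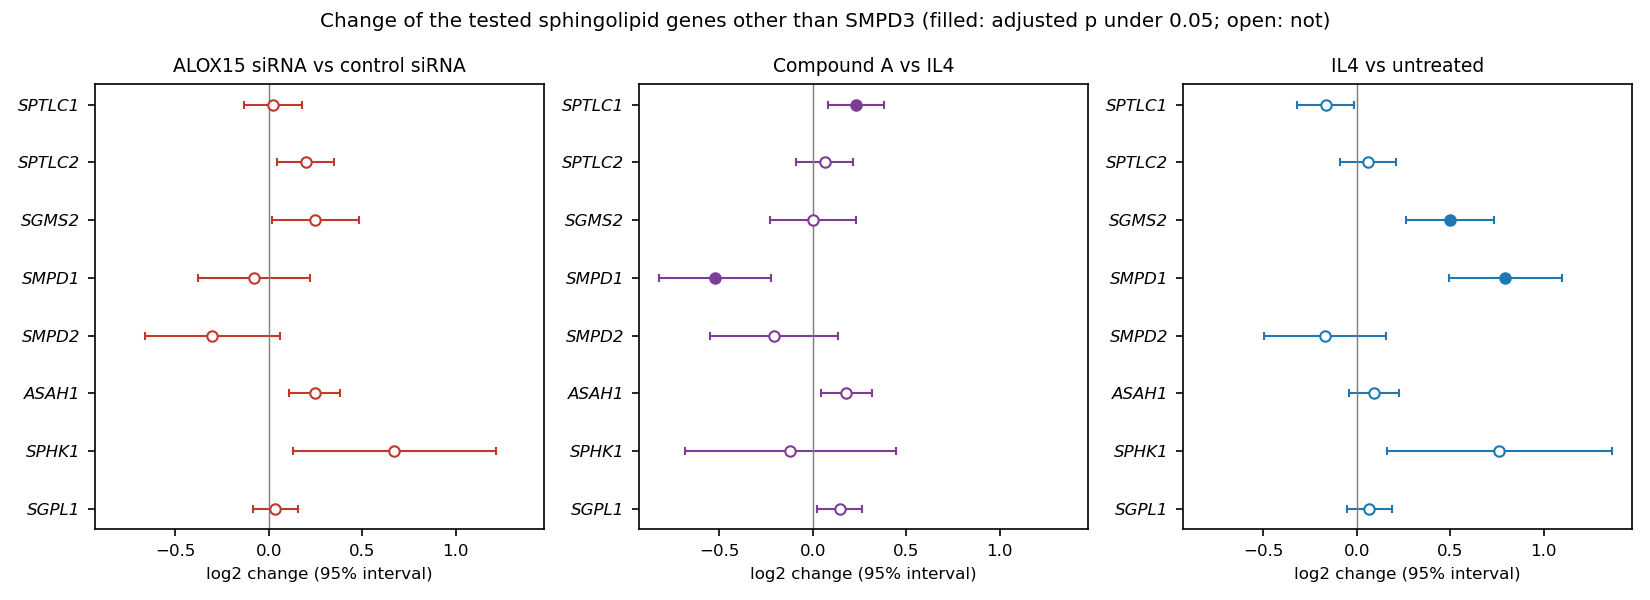
Log2 change (x axis, points with 95% intervals, same scale in each panel) of 8 tested genes in ALOX15 siRNA over control siRNA, Compound A over IL4, and IL4 over untreated; filled points have an edgeR adjusted p under 0.05. SMPD1 is at 0.79 for IL4 over untreated and at -0.52 for Compound A over IL4, SPTLC1 is at 0.23 for Compound A over IL4, and no point is filled for ALOX15 siRNA.

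Ratios of 2 genes' counts within a library do not depend on how libraries are scaled, and 3 pairs of alternative or partner enzymes were set out this way. They were computed after the levels were known and are given with no test, since 3 libraries against 3 cannot give an exact permutation p below 0.10. The SPTLC1/SPTLC2 ratio was 0.884, 0.940 and 0.972 in ALOX15 siRNA cells, against 1.06, 1.02 and 1.07 in control siRNA cells. It was 1.11, 1.21 and 1.099 in Compound A cells and 1.06, 0.983 and 1.01 in IL4 cells, against 1.12, 1.23 and 1.198 in untreated cells. Every ALOX15 siRNA library lay below every other library for this ratio, and the Compound A and untreated libraries were the 6 highest.

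The SGMS2/SGMS1 ratio sets the plasma membrane sphingomyelin synthase beside that of the Golgi. It averaged 1.09 ± 0.0264 in ALOX15 siRNA cells, 1.04 ± 0.0329 in control siRNA cells, 0.989 ± 0.151 in Compound A cells, 1.13 ± 0.0189 in IL4 cells and 0.791 ± 0.121 in untreated cells (SD, n = 3 each). SGMS1 itself did not pass the test between IL4 and untreated cells (log2 change -0.02 ± 0.12 SE, edgeR adjusted p = 0.931). The SPHK1/SPHK2 ratio, of the 2 sphingosine kinases, was 0.315, 0.403 and 0.419 in ALOX15 siRNA cells, 0.177 to 0.239 in control siRNA cells, 0.168 to 0.233 in Compound A cells, 0.191 to 0.238 in IL4 cells and 0.106 to 0.147 in untreated cells. The 3 ALOX15 siRNA libraries had the highest SPHK1/SPHK2 ratios and the 3 untreated libraries the lowest.

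**Figure D4:**
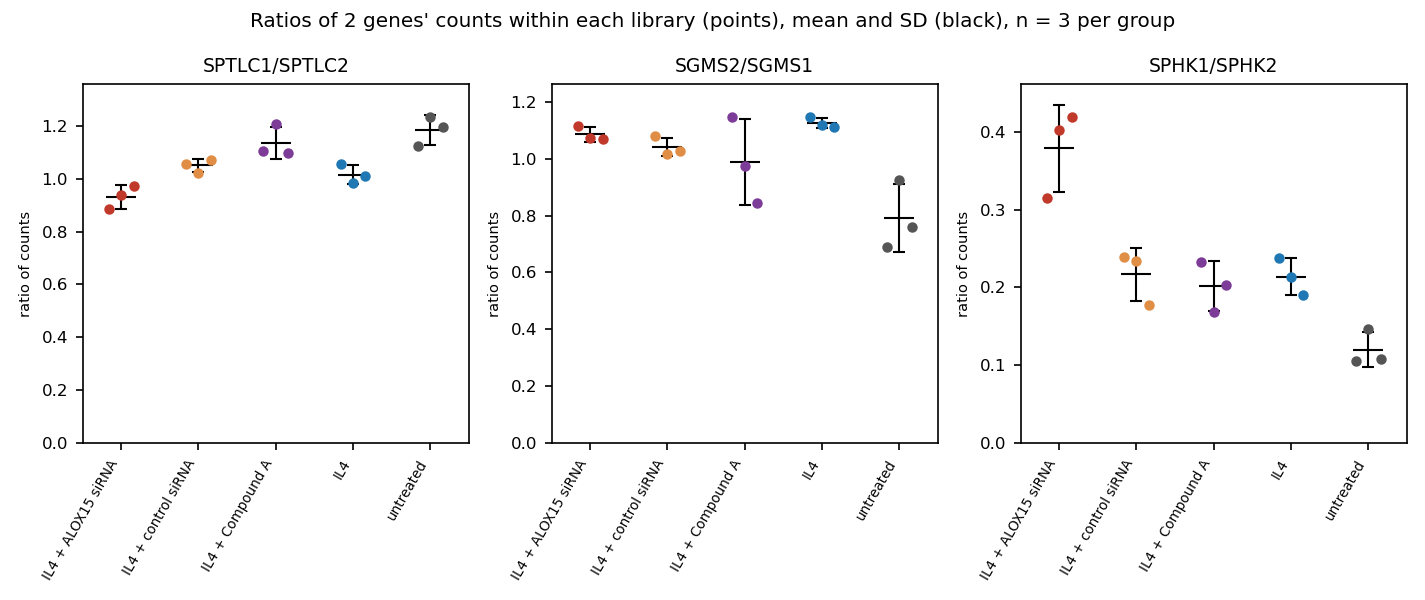
Ratio of counts within each library (y axis, from 0; points are libraries, black marks the mean and SD, n = 3 per group) for SPTLC1/SPTLC2, SGMS2/SGMS1 and SPHK1/SPHK2, with IL4 plus ALOX15 siRNA on the left and untreated on the right. SPTLC1/SPTLC2 is lowest in ALOX15 siRNA cells (0.884 to 0.972), SGMS2/SGMS1 is lowest in untreated cells (mean 0.791), and SPHK1/SPHK2 is highest in ALOX15 siRNA cells (0.315 to 0.419).

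A further 63 genes of the pathway were looked up, and 52 passed the filter on low counts. Between IL4 and untreated cells 9 of the 52 rose and 7 fell, beside 11.2% and 11.6% over all genes. Among the rises were those of DEGS2 and FA2H, which add hydroxyl groups during ceramide synthesis: DEGS2 averaged 5.66 ± 2.89 CPM in IL4 cells and 1.62 ± 0.150 CPM in untreated cells, and FA2H 44.1 ± 7.51 CPM in IL4 cells and 19.8 ± 0.665 CPM in untreated cells (SD, n = 3 each). Their log2 changes were 1.81 ± 0.33 and 1.15 ± 0.11 (SE), and 1.36 and 1.01 without IL4 replicate 1. PLPP3 and PLPP1, lipid phosphate phosphatases that can act on sphingosine-1-phosphate, rose by 1.13 ± 0.08 and 0.56 ± 0.08, and ST3GAL5, which makes the ganglioside GM3, rose by 0.89 ± 0.08 (log2 change and SE). Without IL4 replicate 1 these 3 log2 changes were 1.11, 0.48 and 0.90, and all 3 passed the test.

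The falls included the ceramide synthase CERS6, at 131 ± 22.0 CPM in IL4 cells and 199 ± 13.5 CPM in untreated cells (SD, n = 3 each; log2 change -0.60 ± 0.10 SE). ALDH3A2, which oxidises the aldehyde that SGPL1 releases, averaged 388 ± 17.8 CPM in IL4 cells and 580.2 ± 6.43 CPM in untreated cells (log2 change -0.58 ± 0.05 SE). The lysosomal hydrolase GLA fell by 0.41 ± 0.09, and SPTSSA, the small activating subunit of serine palmitoyltransferase, fell by 0.51 ± 0.14 (log2 change and SE). The SPTSSA call was lost without untreated replicate 1 and without IL4 replicate 1 (edgeR adjusted p = 0.0724 and 0.0931). Without IL4 replicate 1 the log2 changes of CERS6, ALDH3A2 and GLA were -0.46, -0.54 and -0.47, and all 3 passed the test. None of the 3 ORMDL inhibitors of serine palmitoyltransferase passed the test; their log2 changes lay between -0.13 and 0.02.

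Between Compound A and IL4 cells 5 of the 52 rose and 6 fell, beside 6.35% and 8.07% over all genes. CERS6 rose by 0.44 ± 0.10, SAMD8, a sphingomyelin synthase relative, by 0.43 ± 0.10, and the galactosylceramidase GALC by 0.32 ± 0.08 (log2 change and SE), and these 3 calls held without IL4 replicate 1, with log2 changes of 0.31, 0.31 and 0.25. FA2H averaged 30.1 ± 1.86 CPM in Compound A cells and 44.1 ± 7.51 CPM in IL4 cells (SD, n = 3 each; log2 change -0.54 ± 0.11 SE), and GLA fell by 0.34 ± 0.09; both calls held without IL4 replicate 1, at -0.40 and -0.28. UGCG, which makes glucosylceramide, and ST3GAL5 rose by 0.46 ± 0.13 and 0.22 ± 0.07, and GAL3ST1, PLPP2 and the sphingomyelinase SMPD4 fell by 0.71 ± 0.21, 0.43 ± 0.13 and 0.26 ± 0.08. Each of these last 5 calls was lost without IL4 replicate 1 (edgeR adjusted p 0.0784 to 0.229), and SMPD4 is uncertain, its deposited counts being not whole numbers in all 15 libraries. Without Compound A replicate 2 the calls of UGCG, ST3GAL5, GAL3ST1, PLPP2, GLA and SMPD4 were lost (edgeR adjusted p 0.0568 to 0.184), and without Compound A replicate 3 those of the first 5 (edgeR adjusted p 0.0731 to 0.11). When the fit held only these groups, every call named here but that of FA2H was lost, those of CERS6, SAMD8 and GALC included (edgeR adjusted p 0.0639 to 0.176). With GC correction those of ST3GAL5, GAL3ST1, PLPP2 and SMPD4 were lost.

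Between ALOX15 siRNA and control siRNA cells ST3GAL5 was the 1 gene of the 52 that passed, with 49.7 ± 1.11 CPM in ALOX15 siRNA cells and 39.1 ± 0.589 CPM in control siRNA cells (SD, n = 3 each; log2 change 0.34 ± 0.07 SE, edgeR adjusted p = 0.0268). The call was lost when any 1 of the 6 libraries was left out (edgeR adjusted p 0.0712 to 0.159). The change with Compound A and the change with ALOX15 siRNA differed for FA2H, by -0.91 ± 0.15 (SE; edgeR adjusted p = 0.00131), and for CERS6, by 0.48 ± 0.14 (SE; edgeR adjusted p = 0.0499), on the log2 scale. The FA2H difference passed under each of the 20 other settings tried, without IL4 replicate 1 as well (-0.77), whereas the CERS6 difference was lost under 13 of them, among them leaving out any Compound A or ALOX15 siRNA library (edgeR adjusted p 0.0705 to 0.132).

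**Figure D5:**
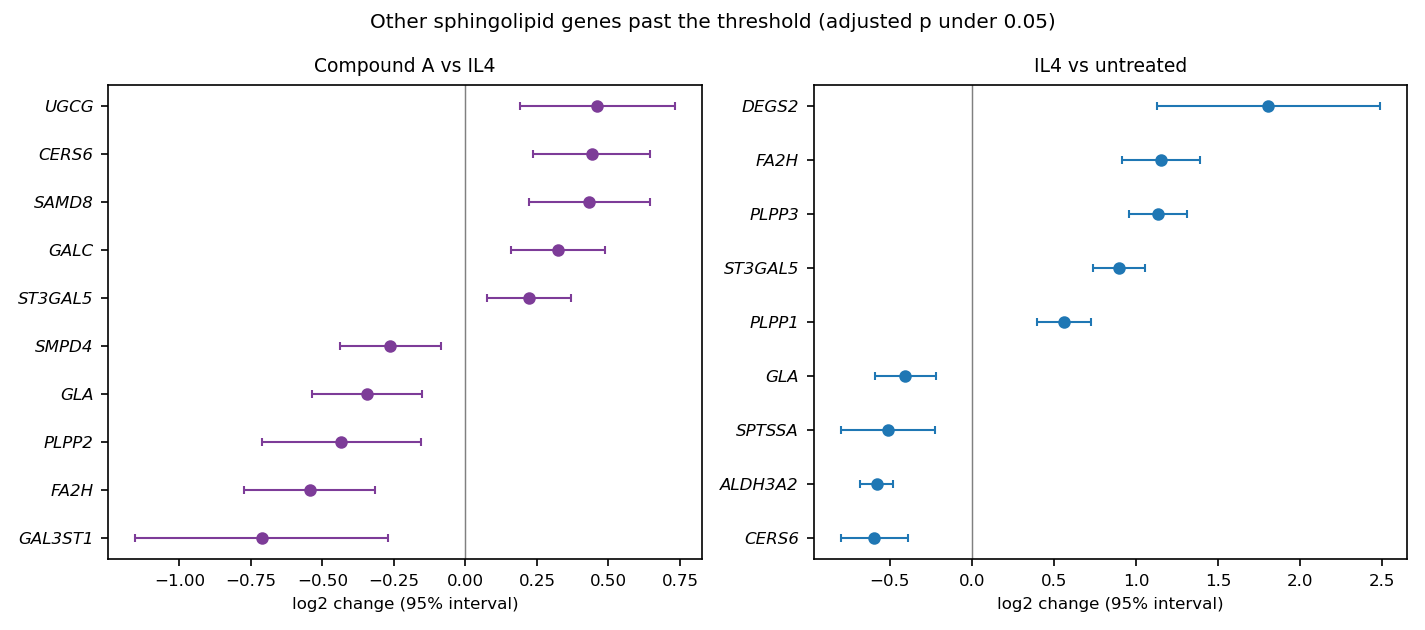
Log2 change (x axis, points with 95% intervals) of the other pathway genes named in the text, each with an edgeR adjusted p under 0.05, in Compound A over IL4 cells (left) and IL4 over untreated cells (right). DEGS2 is at 1.81 and FA2H at 1.15 for IL4, and FA2H is at -0.54 for Compound A.

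Across the 15 libraries, the genes whose log2 CPM followed SMPD3 most closely were MLPH, KRT4 and RHOB (Pearson r = 0.944, 0.940 and 0.939). Those that followed SPHK1 most closely were ATP5C1, LPCAT1 and ITGA11 (r = 0.949, 0.934 and 0.927). These values are descriptions over libraries that share groups and depth, and 3 of the 15 points for SMPD3 are untreated libraries at 0 or 1 count. ITGA11 averaged 28.3 ± 0.709 CPM in ALOX15 siRNA cells, 18.3 ± 0.777 CPM in control siRNA cells, 15.95 ± 1.33 CPM in Compound A cells, 18.6 ± 1.71 CPM in IL4 cells and 11.6 ± 2.93 CPM in untreated cells (SD, n = 3 each), the same order of ALOX15 siRNA above the other IL4 arms and those above untreated as SPHK1. A shared order follows from picking ITGA11 by its correlation with SPHK1 over these libraries and is no support for either gene.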

How the data were processed

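RNA from A549 cells was sequenced. The authors deposited expected counts per gene from RSEM 1.2.15 with Bowtie2 2.1.0 on hg38, per the submitters' processing notes; the annotation, strand setting and filters are not given in the sources used here. Expected counts were rounded. edgeR 4.0.16 (R 4.3.3) was fitted to all 15 libraries with filterByExpr, TMM scaling and the robust quasi-likelihood test, with Benjamini-Hochberg adjustment over 12795 genes and a threshold of 0.05. CPM used the TMM-scaled library size. Counting intervals are exact binomial at 95% and, like the limit for 0 (3 counts), cover counting error only. The script was tested on simulated data. DESeq2 1.42.0, upper-quartile scaling, GC correction (95.1% of genes had a value) and library-out fits were alternatives; the scaling and GC ones were chosen after seeing the data.

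The 10 genes, the 63 other pathway genes and the markers were chosen with earlier results of these data known. All 10 are named; of the 63, those past the threshold, up to 5 per direction and comparison by log2 change with at least 1 CPM in 1 group. PLPP1, PLPP2 and PLPP3 are listed under older symbols. A result for 1 of these genes is not reported here.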

Additional observations from a re-analysis of the deposited data

How the results depend on the processing

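Across 1584 values of single genes under other settings, 1486 stayed on the same side of the threshold, 82 lost a call, 16 gained one and 0 called values reversed; 41 uncalled values changed sign. No setting shifted the median of all genes by more than 0.0346 on the log2 scale. In the counts below SMPD3 is tested too, except against untreated cells, where it is left out because it was chosen on that ratio. Compound A against IL4 called 2 of the 10 genes, 1 with no filter, 1 with upper-quartile scaling, 0 with GC correction, 0 with only the groups compared, and 0 to 3 with 1 library left out. SPTLC1 then had adjusted p of 0.0513, 0.0502, 0.0555 and 0.138, and SMPD1 0.0542 with GC correction and 0.102 with only the groups compared. ALOX15 siRNA against control siRNA called 0, and 1 with GC correction or only the groups compared. Compound A against control siRNA called 0, 2 with only the groups compared, and 0 to 1 with 1 library left out. Control siRNA with IL4 against untreated called 2 with SMPD3 left out, SMPD1 and SGMS2. Counting SMPD3 as well, as a description only, gives 3, and 5 with GC correction. ASAH1 and SGPL1 gained calls with GC correction (edgeR adjusted p = 0.0336 and 0.0237). The cause was not tested. SMPD3 did not pass the filter in fits of only 2 compared groups, but it passed in the fit for the difference of the 2 interventions.

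Same-numbered libraries correlated weakly, with r over 0.1 in 8 of 30 pairs (median 0.0224, from -0.128 to 0.286). Among differently numbered libraries r was over 0.1 in 7 of 60 pairs (median -0.00983, from -0.237 to 0.232). Of 15 libraries, 9 correlated best with their own number. These values do not settle whether same-numbered libraries were paired. With the replicate block SPHK1 gained a call for IL4 against untreated (edgeR adjusted p = 0.0375). ASAH1 gained one for Compound A against IL4 (edgeR adjusted p = 0.0385), which then called 3. SGPL1 gained one for control siRNA with IL4 against untreated (edgeR adjusted p = 0.048). The counts were the same as without the block in the other 6 comparisons.

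Over all genes, counts that moved by over 1.5 times were 2925 for IL4 against untreated (1466 with only the groups compared), 1846 for Compound A against IL4 (397 with only the groups compared, 3016 without IL4 replicate 3, 769 and 980 without Compound A replicate 2 or 3), 89 for ALOX15 siRNA (287 with GC correction, 325 with only the groups compared, 35 to 52 with 1 library left out), 675 for Compound A against control siRNA (1249, 1768, and 220 to 424), 658 for the difference of the 2 interventions (1325 with GC correction, 1153 without IL4 replicate 3, 324 to 409 with other libraries left out) and 0 for control siRNA against IL4 (1 with GC correction, 2 with DESeq2). Depth limits SPTLC3, SMPD3 and SPHK1 most, at 34, 100 and 307 counts in all.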
